A study of Mus musculus with 8 samples.

Results

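The 55 genes described here act in mitosis and chromosome segregation. They were chosen by name, as known mitotic genes, from the 27594 genes of the deposited count table, with earlier results of these data known. Shares and medians set beside those of all genes or of other lists therefore describe this list and do not test it. They were sorted by the role of their products into 9 classes: 9 mitotic kinases, cyclins and phosphatases, 2 transcription factors of mitotic genes, 5 spindle assembly checkpoint genes, 4 chromosomal passenger genes, 6 anaphase regulators and cohesion genes, 7 centromere and kinetochore genes, 7 kinesin motors, 8 spindle and cytokinesis genes, and 7 genes of chromosome condensation and the chromosome surface. All 55 passed the filter on low counts and were tested.

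RNA was sequenced from regulatory T (Treg) cells of C57BL/6 mice aged 6 to 8 weeks, taken from spleen and peripheral lymph nodes and sorted as CD4+ YFP+ cells. Resting Treg (rTreg) cells were sorted as CD44low, and activated Treg (aTreg) cells as CD44high, each with a further surface marker. The wild-type (WT) mice carried Foxp3-YFP-Cre, and the Foxp1-deficient mice carried Foxp1fl/fl together with Foxp3-YFP-Cre, so that the Cre recombinase was present in all 4 groups and Foxp1 was removed only in cells that express Foxp3. Each group had 2 libraries, of 6373170 to 15268623 counts. Nothing in the labels says whether the 2 libraries of a group came from separate mice, or whether mice were pooled. The main fit held the replicate number as a term. Its p-values therefore measure the spread left after differences shared by same-numbered libraries, not the full spread between the 2 libraries of a group. This remaining spread may be technical. Without the replicate term fewer mitotic genes were called in both genotype comparisons, as given below.

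Mitosis hands a complete set of chromosomes to each daughter cell. Cyclin-dependent kinase activity starts it, the spindle and its motors move the chromosomes, the checkpoint holds anaphase back until every kinetochore is attached, and the anaphase-promoting complex then ends it. Most genes of this program are transcribed late in the cell cycle, in G2 and M phase, and are kept off in quiescent cells, among them resting lymphocytes. Many of their promoters carry a cell cycle homology region (CHR, TTTGAA or TTTAAA) and CCAAT boxes, and FOXM1 and the MYB-related factor MYBL2 take part in their transcription.

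Promoters are shown for the 4 genes with the largest fold difference between Foxp1-deficient and WT rTreg cells among those called higher there that had a listed window and held a CHR, a CCAAT or the forkhead motif TGTTTA in it, and for the most abundant such gene, Cdc25b. Tpx2 and Aurkb had larger folds than Ttk but no listed window. The windows, from RefSeq on GRCm38.p6, run 5′ to 3′ along the gene from 250 bases before to 50 bases after a start of transcription listed there. Bases just after that start were found in a transcript of the same gene for 35 of the 49 windows of the set. Capitals mark every match to either form of the CHR, to the CCAAT box and to the forkhead motif, on both strands, so that a match on the opposite strand reads as its reverse complement (ATTGG for the CCAAT box).
Kif4 lies at chrX:100625815-100626114 (plus strand), Cenpf at chr1:189688037-189688336 (minus strand), Kif2c at chr4:117178723-117179022 (minus strand), Ttk at chr9:83834439-83834738 (plus strand), and Cdc25b at chr2:131186698-131186997 (plus strand).
Kif4: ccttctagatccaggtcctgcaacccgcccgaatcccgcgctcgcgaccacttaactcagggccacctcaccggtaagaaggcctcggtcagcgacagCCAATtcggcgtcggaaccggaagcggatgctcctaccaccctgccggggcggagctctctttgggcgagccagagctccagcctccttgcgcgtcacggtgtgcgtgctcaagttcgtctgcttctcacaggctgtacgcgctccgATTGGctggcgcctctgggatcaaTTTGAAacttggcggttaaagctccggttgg
Cenpf: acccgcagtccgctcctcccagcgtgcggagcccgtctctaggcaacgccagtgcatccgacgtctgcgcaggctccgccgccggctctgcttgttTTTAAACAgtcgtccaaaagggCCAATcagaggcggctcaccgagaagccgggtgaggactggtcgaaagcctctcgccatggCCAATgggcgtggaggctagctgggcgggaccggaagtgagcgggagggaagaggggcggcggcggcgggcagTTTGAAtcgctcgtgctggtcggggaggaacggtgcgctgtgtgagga
Kif2c: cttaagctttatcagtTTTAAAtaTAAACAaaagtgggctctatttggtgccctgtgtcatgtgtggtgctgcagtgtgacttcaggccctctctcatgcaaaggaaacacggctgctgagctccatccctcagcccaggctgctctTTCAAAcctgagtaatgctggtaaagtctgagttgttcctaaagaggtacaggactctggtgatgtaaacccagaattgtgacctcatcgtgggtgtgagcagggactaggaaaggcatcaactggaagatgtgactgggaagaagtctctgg
Ttk: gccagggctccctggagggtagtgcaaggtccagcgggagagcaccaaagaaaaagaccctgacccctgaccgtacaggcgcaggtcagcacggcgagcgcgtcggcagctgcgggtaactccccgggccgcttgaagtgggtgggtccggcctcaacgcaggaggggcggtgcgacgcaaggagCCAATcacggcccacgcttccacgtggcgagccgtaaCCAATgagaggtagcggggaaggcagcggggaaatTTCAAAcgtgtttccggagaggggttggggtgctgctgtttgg
Cdc25b: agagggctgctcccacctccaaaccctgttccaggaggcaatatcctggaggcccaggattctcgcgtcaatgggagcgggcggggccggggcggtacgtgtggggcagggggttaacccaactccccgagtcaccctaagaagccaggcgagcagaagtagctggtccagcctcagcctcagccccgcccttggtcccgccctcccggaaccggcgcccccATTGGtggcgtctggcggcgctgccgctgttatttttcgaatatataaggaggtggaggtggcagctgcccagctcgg

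Kif4, Cenpf and Ttk each held a TTTGAA match in the 50 transcribed bases and 2 CCAAT matches before the start, and Cenpf held in addition a TTTAAA that overlapped a TGTTTA. Kif2c held both forms of the CHR and a forkhead match before the listed start and no CCAAT. Its window lies inside the gene, which spans chr4:117159639-117182639 in the GENCODE annotation, and so does not cover the outermost start there. Cdc25b held a CCAAT match on the opposite strand and none of the others. A window was listed for 46 of the 55 genes, and 37 of these 46 (80.4%) held a CHR, against 30.6% of all 27025 genes with a window of the same length. CCAAT was held by 33 of the 46 (71.7%), against 41.1% of all genes. TGTTTA was held by 7 of the 46 (15.2%), against 15.1% of all genes. A CHR stood in 30 of the 37 genes with a window that were called higher in Foxp1-deficient rTreg cells, and in 7 of the 9 that were not. CCAAT stood in 27 of the 37 and 6 of the 9, and TGTTTA in 7 of the 37 and 0 of the 9. Differences between these groups were not tested, and 9 genes are few. These matches are a description of the letters, since no binding was measured in these samples.

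The Foxp1 gene itself gave 354 and 384 CPM in WT and 342 and 338 CPM in Foxp1-deficient rTreg cells, and 234 and 230.3 CPM in WT and 126 and 102 CPM in Foxp1-deficient aTreg cells. In aTreg cells the 2 genotypes did not overlap and the log2 fold change was -1.03 (adjusted p = 0.0019), whereas in rTreg cells it was -0.12 (adjusted p = 0.46). These counts sum all exons of Foxp1, and the exons that Cre removes are not given in the sources used here, so in rTreg cells they do not check the label. CPM are counts scaled to the size of each library with TMM factors, and 3 counts, the floor used here, equal 0.192 to 0.478 CPM.

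The mitotic genes were lowest in WT rTreg cells and highest in Foxp1-deficient aTreg cells, with WT aTreg and Foxp1-deficient rTreg cells between them. The mean was lowest in WT rTreg cells for 54 of 55 genes and highest in Foxp1-deficient aTreg cells for 53 of 55. Both Foxp1-deficient aTreg libraries stood above the other 6 libraries for 50 of 55 genes (90.9%), against 11.8% of all genes tested. Both WT rTreg libraries stood below the other 6 for 45 of 55 (81.8%), against 8.92% of all genes tested. Smc4 had neither order of means, and Bub3 only the first. Summed over all genes of the set but Smc4, the level was 407 and 431 CPM in the WT rTreg libraries, 765 and 899 CPM in their Foxp1-deficient counterparts, 700.4 and 927 CPM in the WT aTreg libraries, and 1403 and 1821 CPM in their Foxp1-deficient counterparts. With Smc4, which made up most of the WT rTreg sum, the sums were 1370 and 1539, 1810 and 2059, 1499 and 1765, and 2125 and 2575 CPM. In these full sums, in the same order of groups, WT rTreg and WT aTreg cells overlapped.

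In the deposited FPKM, which scale by transcript length and so allow genes to be compared, the median level of the 55 genes was 0.394 FPKM (WT) and 1.53 FPKM (Foxp1-deficient) in rTreg cells, and 1.44 FPKM (WT) and 3.20 FPKM (Foxp1-deficient) in aTreg cells. A mean of at least 1 FPKM was reached by 18, 37, 36 and 52 of the 55 genes in these groups, in that order. Over all 8 libraries Smc4 had the highest mean level (176 FPKM), followed by Cdc25b (29.5), Pttg1 (14.6), Incenp (14.4) and Bub3 (12.6). The lowest were Anln (0.279), Cdc25c (0.319) and Ttk (0.343). In bulk RNA, fewer cycling cells and less mitotic RNA in each cell cannot be told apart.

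**Figure D1:**
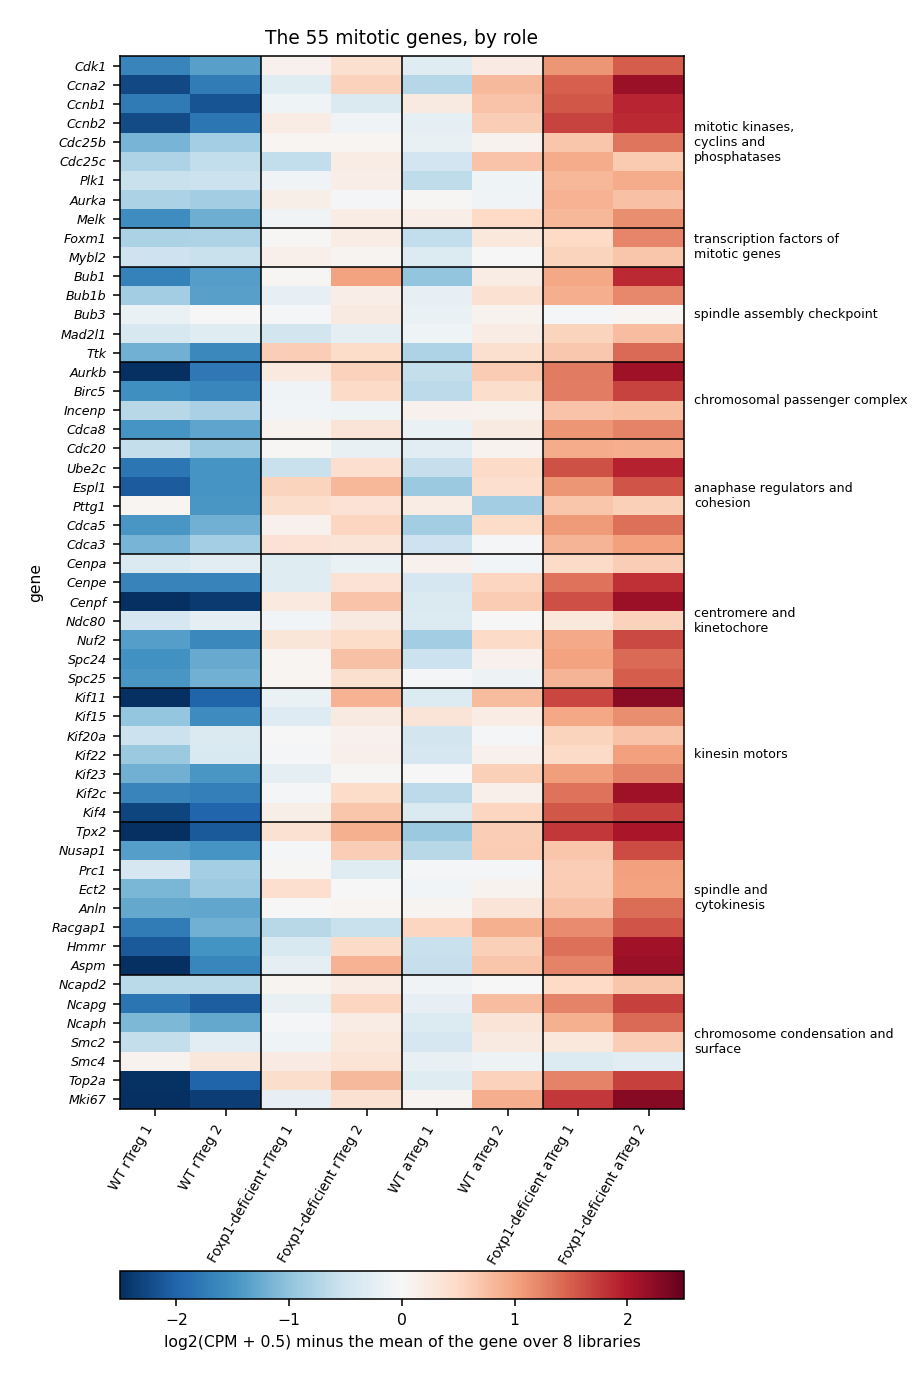
Each row is one of the 55 mitotic genes, grouped by role, and each column is 1 of the 8 libraries. The color gives log2(CPM + 0.5) minus the gene's mean over the 8 libraries, from blue (below the mean) to red (above it), and the scale ends at 2.5 on either side. Both WT rTreg columns are blue and both Foxp1-deficient aTreg columns are red for most rows, while Smc4 and Bub3 stay pale.

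The comparison of Foxp1-deficient with WT rTreg cells asks how loss of Foxp1 bears on cells sorted as resting. In it 43 of 55 mitotic genes were called higher and 0 lower, where a call needed an adjusted p under 0.05 and a fold of at least 1.5, against 2.9% of all 14540 genes called higher and 2.7% called lower. By edgeR 0 genes were lower at an unadjusted p under 0.05, and DESeq2 and limma-voom called 0 lower. The estimates of the 12 genes not called were above 0 as well, although that of Mad2l1, 0.01, fell below 0 with DESeq2, with median-of-ratios scaling, without the low-count filter, and without WT rTreg replicate 2 or Foxp1-deficient rTreg replicate 2. The median log2 fold change of the 55 genes was 1.79, a 3.46-fold difference, and that of all genes tested was 0.0029. The 4 genes with at most 3 counts in each WT rTreg library, Cdc25c, Ttk, Kif2c and Kif4, left the median at 1.79 when that level was set to the floor. Cdc25c lay below that median and Ttk, Kif2c and Kif4 far above it, so this change could not move the median. Other genes with few counts in WT rTreg cells were left as they were. Without the replicate number as a term, 16 of the 55 genes were called and the median was 1.795. Leaving out a library left 15 calls without WT rTreg replicate 2, 27 without Foxp1-deficient rTreg replicate 1 and 13 without Foxp1-deficient rTreg replicate 2. The median then lay between 1.64 and 1.88 in these and the other single leave-outs, and a lone library was assumed to vary like the other groups.

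Between Foxp1-deficient and WT aTreg cells, 43 of 55 mitotic genes were again called higher and 0 lower, against 2.37% of all genes called higher and 1.66% called lower. At an unadjusted p under 0.05 edgeR put 1 gene lower, Smc4, and DESeq2 and limma-voom called 0 lower. The median log2 fold change was 1.20, a 2.30-fold difference, and that of all genes was 0.0018. Both comparisons called 38 of the genes, 38 of 43 in each list. Anln, Ect2, Kif15, Melk and Ttk were called in rTreg cells alone and Cdc20, Kif20a, Mad2l1, Plk1 and Prc1 in aTreg cells alone, whereas Bub3, Cdc25c, Cenpa, Ndc80, Pttg1, Smc2 and Smc4 were called in neither. For none of the 10 genes called in a single subset did the genotype difference itself differ between the subsets past the threshold. The direction was the same in both replicate pairs for 54 of 55 genes in rTreg cells (not Mad2l1) and for 53 of 55 in aTreg cells (not Bub3 and Cdc25c, with Smc4 lower in both pairs). How many of all genes tested kept their direction in both pairs, or were called in both comparisons, was not counted. Unchanged genes also often keep their direction in both pairs. Without the replicate term 2 of 55 genes were called, with a median of 1.17. Calls numbered 26 without WT aTreg replicate 1, 24 without WT aTreg replicate 2, 21 without Foxp1-deficient aTreg replicate 1 and 10 without Foxp1-deficient aTreg replicate 2, and no median of these was under 1.08.

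**Figure D2:**
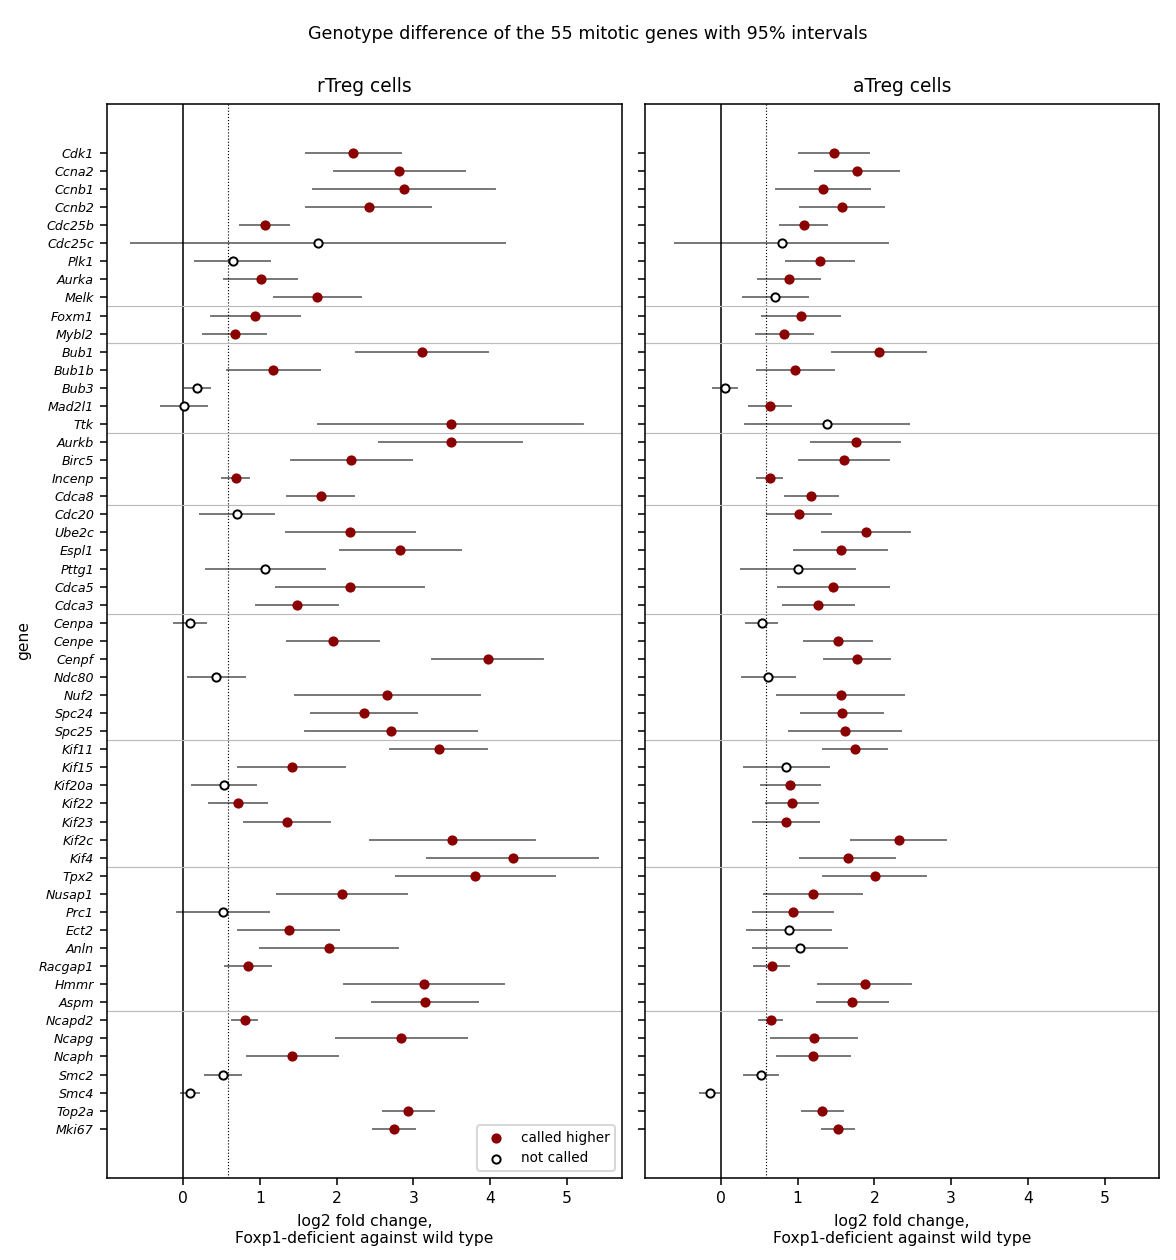
Each point is the log2 fold change of 1 mitotic gene between Foxp1-deficient and WT cells, in rTreg cells on the left and aTreg cells on the right, with its 95% interval as a line. Red points were called higher, open points were not called, and the dotted line marks a fold of 1.5. Red points fill 43 of 55 rows in each panel and reach further to the right in rTreg cells.

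Among the mitotic kinases, cyclins and phosphatases, 7 of 9 genes were called higher in Foxp1-deficient rTreg cells and 7 of 9 in Foxp1-deficient aTreg cells. Where log2 values of both subsets follow each other, here and for the other classes, rTreg cells come first. Cdk1, the kinase that drives entry into mitosis, measured 0.737 and 1.02 CPM in WT and 3.67 and 4.62 CPM in Foxp1-deficient rTreg cells, and 2.63 and 3.98 CPM in WT and 7.88 and 10.6 CPM in Foxp1-deficient aTreg cells. Its levels did not overlap between genotypes in either subset, and the log2 fold change was 2.22 ± 0.27 (SE), adjusted p = 0.0030, in rTreg cells and 1.48 ± 0.20 (SE), adjusted p = 0.0072, in aTreg cells. Cyclin A2, the S and G2 partner of these kinases encoded by Ccna2, measured 0.461 and 0.864 CPM in WT against 3.19 and 6.28 CPM in Foxp1-deficient rTreg cells, with 2.30 and 7.50 CPM in WT against 12.3 and 19.9 CPM in Foxp1-deficient aTreg cells. WT rTreg cells were low and the WT aTreg libraries lay far apart, and the log2 differences by genotype were 2.82 ± 0.37 (SE), adjusted p = 0.0041, and 1.77 ± 0.24 (SE), adjusted p = 0.0074. Cyclin B2 RNA (Ccnb2) measured 0.921 and 1.41 CPM in WT and 7.17 and 5.85 CPM in Foxp1-deficient rTreg cells, and 5.27 and 9.81 CPM in WT and 21.1 and 24.1 CPM in Foxp1-deficient aTreg cells. The log2 rise was 2.42 ± 0.35 (SE), adjusted p = 0.0064, in rTreg cells and 1.57 ± 0.23 (SE), adjusted p = 0.011, in aTreg cells, with no overlap in either.

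Ccnb1, which encodes cyclin B1, the mitotic partner of CDK1, measured 0.368 and 0.157 CPM in WT and 2.23 and 1.80 CPM in Foxp1-deficient rTreg cells, and 2.96 and 4.36 CPM in WT and 8.13 and 10.5 CPM in Foxp1-deficient aTreg cells. The WT rTreg values rest on 4 and 2 counts, and the log2 fold change was 2.88 ± 0.51 (SE), adjusted p = 0.013, in rTreg cells and 1.33 ± 0.26 (SE), adjusted p = 0.028, in aTreg cells. The processed pseudogene Ccnb1-ps is 99.2% identical over 51.7% of the transcript, so reads could be split between them, and it held 0 to 5 counts in each library. Cdc25b, a phosphatase that activates CDK1, was the most abundant gene of the class at 42.5 and 52.8 CPM in WT against 99.1 and 98.9 CPM in Foxp1-deficient rTreg cells, with 84.6 and 102 CPM in WT against 155 and 245 CPM in Foxp1-deficient aTreg cells. The genotypes stood apart in both subsets by nearly the same amount on the log2 scale, 1.06 ± 0.14 (SE), adjusted p = 0.0042, and 1.08 ± 0.13 (SE), adjusted p = 0.0052. Melk and Aurka were called higher in rTreg cells as well (log2 1.75 and 1.01). Plk1, the Polo kinase, passed the test in aTreg cells (log2 1.29 ± 0.19 (SE), adjusted p = 0.010) and not in rTreg cells (log2 0.64 ± 0.21 (SE), adjusted p = 0.089). Cdc25c had 1 and 2 counts in WT rTreg cells and did not pass the test in either subset, and its ratio of Foxp1-deficient to WT rTreg cells was 3.91 (95% exact interval 1.01 to 22.1), which covers counting error only.

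Both transcription factors were called higher in both subsets. Foxm1, a forkhead factor that activates G2 and M genes, measured 5.25 and 5.34 CPM in WT and 9.72 and 10.9 CPM in Foxp1-deficient rTreg cells, and 6.04 and 11.5 CPM in WT and 13.6 and 22.9 CPM in Foxp1-deficient aTreg cells. The genotypes did not overlap within either subset, and the log2 difference was 0.94 ± 0.25 (SE), adjusted p = 0.049, in rTreg cells and 1.04 ± 0.22 (SE), adjusted p = 0.032, in aTreg cells. Mybl2, which encodes B-MYB, measured 5.71 and 5.58 CPM in WT and 9.24 and 8.88 CPM in Foxp1-deficient rTreg cells, and 6.58 and 8.33 CPM in WT and 12.7 and 13.9 CPM in Foxp1-deficient aTreg cells. Its log2 differences were 0.67 ± 0.18 (SE), adjusted p = 0.048, and 0.82 ± 0.16 (SE), adjusted p = 0.026. These 2 genes had among the smallest differences of those called, and in rTreg cells they lost the call with DESeq2 (adjusted p = 0.053 for Foxm1 and 0.16 for Mybl2), limma-voom and median-of-ratios scaling.

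In the spindle assembly checkpoint 3 of 5 genes were called higher in each subset, and they were not the same 3. Bub1, a checkpoint kinase of the kinetochore, measured 0.276 and 0.471 CPM in WT against 2.07 and 4.55 CPM in Foxp1-deficient rTreg cells, with 0.768 and 2.37 CPM in WT against 4.44 and 8.62 CPM in Foxp1-deficient aTreg cells. WT rTreg libraries held 3 and 6 counts, and the log2 fold change was 3.12 ± 0.37 (SE), adjusted p = 0.0030, in rTreg cells and 2.06 ± 0.26 (SE), adjusted p = 0.0061, in aTreg cells. Bub1b, which encodes the checkpoint protein BUBR1, measured 5.25 and 3.61 CPM in WT and 8.61 and 11.3 CPM in Foxp1-deficient rTreg cells, and 8.67 and 13.1 CPM in WT and 19.4 and 23.6 CPM in Foxp1-deficient aTreg cells. Foxp1-deficient cells stood above the WT cells of the same subset without overlap, on the log2 scale by 1.18 ± 0.26 (SE), adjusted p = 0.028, and 0.97 ± 0.22 (SE), adjusted p = 0.040. Ttk, the MPS1 kinase that starts checkpoint signaling, measured 0.276 and 0.0786 CPM in WT and 2.23 and 1.95 CPM in Foxp1-deficient rTreg cells, and 0.549 and 1.86 CPM in WT and 2.35 and 4.24 CPM in Foxp1-deficient aTreg cells. Its WT rTreg values were 3 and 1 counts, the ratio of Foxp1-deficient to WT rTreg cells was 12.0 (95% exact interval 4.35 to 46.2), and the test gave an adjusted p = 0.025 in rTreg cells and 0.12 in aTreg cells.

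The other checkpoint genes behaved differently. Mad2l1, which encodes the MAD2 inhibitor of CDC20, measured 10.2 and 10.9 CPM in WT against 9.72 and 11.6 CPM in Foxp1-deficient rTreg cells, with 12.5 and 15.4 CPM in WT against 20.3 and 23.4 CPM in Foxp1-deficient aTreg cells. The rTreg genotypes overlapped (log2 0.01 ± 0.13 (SE), adjusted p = 0.98, 95% interval -0.29 to 0.32), and the aTreg genotypes did not (log2 0.64 ± 0.12 (SE), adjusted p = 0.021). Bub3, a kinetochore protein with other roles in nuclear RNA, was the most abundant of the class at 78.1 and 89.0 CPM in WT and 86.5 and 103 CPM in Foxp1-deficient rTreg cells, and 77.8 and 94.1 CPM in WT and 86.4 and 91.2 CPM in Foxp1-deficient aTreg cells. The genotypes overlapped in both subsets, and the log2 differences were 0.18 ± 0.07 (SE), adjusted p = 0.14, and 0.05 ± 0.07 (SE), adjusted p = 0.72.

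All 4 genes of the chromosomal passenger complex, which corrects wrong attachments and guides cytokinesis, were called higher in both subsets. Aurkb, its kinase, measured 0.184 and 0.628 CPM in WT and 4.14 and 5.34 CPM in Foxp1-deficient rTreg cells, and 2.08 and 5.51 CPM in WT and 9.05 and 16.5 CPM in Foxp1-deficient aTreg cells. WT rTreg libraries held 2 and 8 counts, and the log2 differences were 3.49 ± 0.40 (SE), adjusted p = 0.0027, in rTreg cells and 1.76 ± 0.25 (SE), adjusted p = 0.0092, in aTreg cells. Birc5, which encodes survivin, measured 1.20 and 1.10 CPM in WT against 4.14 and 6.36 CPM in Foxp1-deficient rTreg cells, with 2.63 and 6.22 CPM in WT against 11.5 and 15.3 CPM in Foxp1-deficient aTreg cells. The genotypes did not overlap, and the fold was 4.56 in rTreg cells (adjusted p = 0.0082) and 3.04 in aTreg cells (adjusted p = 0.013). Cdca8, which encodes borealin, measured 2.21 and 2.51 CPM in WT and 7.49 and 8.88 CPM in Foxp1-deficient rTreg cells, and 6.25 and 8.27 CPM in WT and 15.7 and 17.2 CPM in Foxp1-deficient aTreg cells. Its libraries agreed closely within each group, and the log2 differences were 1.79 ± 0.19 (SE), adjusted p = 0.0019, and 1.18 ± 0.15 (SE), adjusted p = 0.0061.

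Incenp, the scaffold of the complex, was its most abundant member at 26.4 and 24.4 CPM in WT and 41.3 and 40.4 CPM in Foxp1-deficient rTreg cells, and 47.0 and 46.3 CPM in WT and 71.6 and 73.5 CPM in Foxp1-deficient aTreg cells. It differed by a smaller amount than its partners on the log2 scale, 0.68 ± 0.08 (SE), adjusted p = 0.0025, in rTreg cells and 0.64 ± 0.07 (SE), adjusted p = 0.0032, in aTreg cells, with a narrow error in both.

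Among the anaphase regulators and cohesion genes 4 of 6 were called higher in rTreg cells and 5 of 6 in aTreg cells. Espl1, which encodes separase, the protease that cuts cohesin, measured 0.921 and 1.65 CPM in WT against 8.29 and 10.1 CPM in Foxp1-deficient rTreg cells, with 2.63 and 7.50 CPM in WT against 12.4 and 17.2 CPM in Foxp1-deficient aTreg cells. Foxp1-deficient rTreg cells stood above both WT groups, and the log2 differences were 2.83 ± 0.34 (SE), adjusted p = 0.0031, and 1.56 ± 0.26 (SE), adjusted p = 0.016. Ube2c, the ubiquitin-conjugating enzyme of the anaphase-promoting complex, measured 0.645 and 0.943 CPM in WT and 2.23 and 4.91 CPM in Foxp1-deficient rTreg cells, and 2.19 and 5.13 CPM in WT and 11.7 and 14.9 CPM in Foxp1-deficient aTreg cells. It differed on the log2 scale by 2.18 ± 0.36 (SE), adjusted p = 0.011, in rTreg cells and 1.89 ± 0.25 (SE), adjusted p = 0.0070, in aTreg cells, and 22.8% of its exon bases overlap a gene on the other strand, which these unstranded libraries cannot separate. Cdca5, which encodes sororin, the protector of cohesin, measured 0.645 and 0.864 CPM in WT and 2.87 and 4.04 CPM in Foxp1-deficient rTreg cells, and 1.21 and 3.78 CPM in WT and 6.04 and 7.69 CPM in Foxp1-deficient aTreg cells. Genotypes stood apart in both subsets, on the log2 scale by 2.17 ± 0.42 (SE), adjusted p = 0.018, and 1.46 ± 0.31 (SE), adjusted p = 0.034.

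Pttg1, which encodes securin, the inhibitor of separase, was the most abundant gene of the class at 27.4 and 9.35 CPM in WT against 36.0 and 33.9 CPM in Foxp1-deficient rTreg cells, with 30.1 and 14.2 CPM in WT against 42.9 and 39.9 CPM in Foxp1-deficient aTreg cells. In WT cells replicate 1 stood far above replicate 2 in both subsets, and neither difference passed the test (log2 1.07 ± 0.34 (SE), adjusted p = 0.080, and 1.00 ± 0.32 (SE), adjusted p = 0.11). In rTreg cells it was called by DESeq2 (adjusted p = 0.0275), without the low-count filter, in the fit of these 4 libraries alone, and without WT rTreg replicate 1, where the log2 fold change was 1.71. Over all alternatives its adjusted p ran from 0.00043 to 0.45. Cdc20, the activator of the anaphase-promoting complex, had a log2 difference of 0.70 ± 0.21 (SE), adjusted p = 0.070, in rTreg cells and passed the test in aTreg cells, 1.01 ± 0.18 (SE), adjusted p = 0.019. Cdca3 was called in both (log2 1.48 and 1.27).

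At the centromere and kinetochore 5 of 7 genes were called higher in each subset, and they were the same 5, Cenpe, Cenpf, Nuf2, Spc24 and Spc25. Cenpf, an outer kinetochore protein made in G2, measured 0.368 and 0.471 CPM in WT and 5.58 and 7.87 CPM in Foxp1-deficient rTreg cells, and 3.51 and 7.44 CPM in WT and 15.1 and 22.0 CPM in Foxp1-deficient aTreg cells. It had one of the largest log2 differences of the set, 3.97 ± 0.31 (SE), adjusted p = 0.00066, in rTreg cells, and 1.77 ± 0.19 (SE), adjusted p = 0.0028, in aTreg cells. Nuf2, a subunit of the NDC80 complex that binds microtubules, measured 0.553 and 0.393 CPM in WT and 2.87 and 3.25 CPM in Foxp1-deficient rTreg cells, and 0.988 and 3.27 CPM in WT and 4.78 and 8.05 CPM in Foxp1-deficient aTreg cells. The log2 differences were 2.66 ± 0.52 (SE), adjusted p = 0.019, and 1.56 ± 0.36 (SE), adjusted p = 0.043. Spc25, of the same complex, measured 0.184 and 0.314 CPM in WT against 1.43 and 1.95 CPM in Foxp1-deficient rTreg cells, with 1.32 and 1.22 CPM in WT against 2.85 and 4.82 CPM in Foxp1-deficient aTreg cells. WT rTreg libraries held 2 and 4 counts, and it differed on the log2 scale by 2.70 ± 0.48 (SE), adjusted p = 0.013, and 1.61 ± 0.32 (SE), adjusted p = 0.027. Spc24, its partner, measured 0.645 and 0.864 CPM in WT and 2.87 and 4.91 CPM in Foxp1-deficient rTreg cells, and 1.76 and 3.01 CPM in WT and 6.04 and 8.19 CPM in Foxp1-deficient aTreg cells. Genotypes did not overlap, and the log2 differences were 2.36 ± 0.30 (SE), adjusted p = 0.0037, and 1.58 ± 0.23 (SE), adjusted p = 0.0096.

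Ndc80, the fourth subunit of that complex, did not pass the test in either subset (log2 0.43 ± 0.16 (SE), adjusted p = 0.12, and 0.62 ± 0.15 (SE), adjusted p = 0.051). Cenpa, the histone H3 variant that marks centromeres, was the most abundant gene of the class at 50.7 and 54.1 CPM in WT and 53.1 and 58.2 CPM in Foxp1-deficient rTreg cells, and 70.1 and 62.0 CPM in WT and 90.8 and 100.1 CPM in Foxp1-deficient aTreg cells. The rTreg genotypes overlapped (log2 0.09 ± 0.09 (SE), adjusted p = 0.57), whereas the aTreg genotypes stood apart by less than the 1.5-fold threshold (log2 0.53 ± 0.09 (SE), adjusted p = 0.015).

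Of the kinesin motors 6 of 7 were called higher in each subset. Kif11, the bipolar spindle motor Eg5, was the most abundant at 0.553 and 1.73 CPM in WT against 7.49 and 15.7 CPM in Foxp1-deficient rTreg cells, with 6.58 and 15.1 CPM in WT against 28.1 and 42.1 CPM in Foxp1-deficient aTreg cells. The log2 difference was 3.33 ± 0.27 (SE), adjusted p = 0.00070, in rTreg cells and 1.75 ± 0.18 (SE), adjusted p = 0.0027, in aTreg cells, and neither subset overlapped between genotypes. Kif4, the chromokinesin that helps to shape the midzone, measured 0.0921 and 0.236 CPM in WT and 2.71 and 4.19 CPM in Foxp1-deficient rTreg cells, and 1.76 and 3.72 CPM in WT and 8.05 and 9.06 CPM in Foxp1-deficient aTreg cells. WT rTreg libraries held 1 and 3 counts, so the ratio is given with its counting interval, 22.0 (95% exact interval 8.24 to 82.8), beside an adjusted p = 0.0025 in rTreg cells and 0.014 in aTreg cells, and 15.1% of its exon bases overlap Pdzd11 on the other strand. Kif2c, the MCAK depolymerase that corrects attachments, measured 0.184 and 0.157 CPM in WT and 1.59 and 2.46 CPM in Foxp1-deficient rTreg cells, and 0.878 and 1.86 CPM in WT and 5.03 and 8.84 CPM in Foxp1-deficient aTreg cells. With 2 counts in each WT rTreg library the ratio was 12.9 (95% exact interval 4.69 to 49.4), and the difference in aTreg cells on the log2 scale was 2.32 ± 0.27 (SE), adjusted p = 0.0039, the largest of the 55 genes there.

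The other kinesins had smaller differences. Kif23, the motor of the centralspindlin complex, was called in both subsets (log2 1.35 and 0.85), as was Kif22 (log2 0.71 and 0.93). Kif15 was called in rTreg cells (log2 1.42 ± 0.30 (SE), adjusted p = 0.024) and missed the threshold in aTreg cells (log2 0.85 ± 0.24 (SE), adjusted p = 0.079). Kif20a, which shares 29.3% of its exon bases with Cdc23 on the other strand, showed the reverse, with log2 differences of 0.53 ± 0.18 (SE), adjusted p = 0.098, and 0.91 ± 0.16 (SE), adjusted p = 0.020.

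In the spindle and cytokinesis class 7 of 8 genes were called higher in rTreg cells and 6 of 8 in aTreg cells. Tpx2, which activates Aurora A and nucleates microtubules, measured 0.368 and 0.786 CPM in WT against 6.69 and 9.82 CPM in Foxp1-deficient rTreg cells, with 2.41 and 8.01 CPM in WT against 18.4 and 22.4 CPM in Foxp1-deficient aTreg cells. The log2 difference was 3.81 ± 0.45 (SE), adjusted p = 0.0029, and 2.00 ± 0.29 (SE), adjusted p = 0.0097. Aspm, a spindle pole protein, measured 0.276 and 0.943 CPM in WT and 3.35 and 7.66 CPM in Foxp1-deficient rTreg cells, and 2.52 and 6.73 CPM in WT and 10.1 and 19.4 CPM in Foxp1-deficient aTreg cells. It differed on the log2 scale by 3.15 ± 0.30 (SE), adjusted p = 0.0012, and 1.71 ± 0.20 (SE), adjusted p = 0.0039. Hmmr, a spindle protein and hyaluronan receptor, measured 0.0921 and 0.393 CPM in WT and 1.43 and 3.03 CPM in Foxp1-deficient rTreg cells, and 1.21 and 3.33 CPM in WT and 6.04 and 10.3 CPM in Foxp1-deficient aTreg cells. The log2 difference was 3.13 ± 0.45 (SE), adjusted p = 0.0062, in rTreg cells and 1.87 ± 0.26 (SE), adjusted p = 0.0086, in aTreg cells, and WT rTreg cells held 1 and 5 counts.

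Racgap1, the GTPase-activating partner of Kif23 in centralspindlin, was the most abundant of the class at 6.36 and 9.51 CPM in WT against 13.7 and 15.0 CPM in Foxp1-deficient rTreg cells, with 32.9 and 42.2 CPM in WT against 51.8 and 67.3 CPM in Foxp1-deficient aTreg cells. Its log2 genotype differences were 0.84 ± 0.13 (SE), adjusted p = 0.0081, and 0.66 ± 0.10 (SE), adjusted p = 0.011, and aTreg cells stood above rTreg cells on the log2 scale by 2.24 ± 0.12 (SE), adjusted p = 1.6e-05, in WT cells and 2.06 ± 0.11 (SE), adjusted p = 1.1e-05, in Foxp1-deficient cells. Nusap1 was called in both subsets (log2 2.07 and 1.20), Ect2 and Anln in rTreg cells, and Prc1 in aTreg cells.

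In chromosome condensation and at the chromosome surface 5 of 7 genes were called higher in each subset, again the same 5, Mki67, Top2a, Ncapd2, Ncapg and Ncaph. Mki67, which encodes the proliferation marker Ki-67 that coats mitotic chromosomes, measured 6.72 and 9.43 CPM in WT and 43.4 and 65.4 CPM in Foxp1-deficient rTreg cells, and 52.5 and 94.8 CPM in WT and 172 and 244 CPM in Foxp1-deficient aTreg cells. Every group stood apart from every other except Foxp1-deficient rTreg and WT aTreg cells, and the log2 differences by genotype were 2.75 ± 0.12 (SE), adjusted p = 3.4e-05, and 1.53 ± 0.09 (SE), adjusted p = 0.00032. Top2a, the topoisomerase that disentangles sister chromatids, measured 6.63 and 9.35 CPM in WT and 53.2 and 68.5 CPM in Foxp1-deficient rTreg cells, and 31.3 and 58.1 CPM in WT and 92.1 and 128 CPM in Foxp1-deficient aTreg cells. Again only Foxp1-deficient rTreg and WT aTreg cells overlapped, and it differed on the log2 scale by 2.93 ± 0.14 (SE), adjusted p = 6.0e-05, in rTreg cells and 1.32 ± 0.11 (SE), adjusted p = 0.0016, in aTreg cells. Ncapg, a subunit of condensin I, measured 0.737 and 0.550 CPM in WT against 3.35 and 5.85 CPM in Foxp1-deficient rTreg cells, with 3.29 and 6.92 CPM in WT against 9.81 and 13.7 CPM in Foxp1-deficient aTreg cells. It differed on the log2 scale by 2.84 ± 0.37 (SE), adjusted p = 0.0041, and 1.21 ± 0.24 (SE), adjusted p = 0.028, and shares 13.4% of its exon bases with Lcorl on the other strand.

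Among the 5 condensin subunits of the set, those specific to condensin I were called. The set held no subunit specific to condensin II, and the condensin II gene Ncapg2, outside the set, was called in both subsets as well. Ncapg, Ncaph and Ncapd2, which belong to condensin I, were called in both subsets, with log2 fold changes in rTreg cells of 2.84, 1.42 and 0.80. The ATPase subunits Smc2 and Smc4, which condensin I and II share, were not called. Smc2 differed on the log2 scale by 0.52 ± 0.10 (SE), adjusted p = 0.018, and 0.53 ± 0.10 (SE), adjusted p = 0.020, under the 1.5-fold threshold. Smc4, the most abundant of all 55 genes, measured 964 and 1107 CPM in WT and 1045 and 1160.0 CPM in Foxp1-deficient rTreg cells, and 798 and 838 CPM in WT and 722 and 754 CPM in Foxp1-deficient aTreg cells. It was the only gene of the set that was lower in aTreg than in rTreg cells past an adjusted p of 0.05, with log2 differences of -0.34 ± 0.05 (SE), adjusted p = 0.0020, in WT and -0.58 ± 0.05 (SE), adjusted p = 0.00010, in Foxp1-deficient cells, and its log2 genotype differences were 0.09 ± 0.05 (SE), adjusted p = 0.29, and -0.15 ± 0.05 (SE), adjusted p = 0.13.

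**Figure D3:**
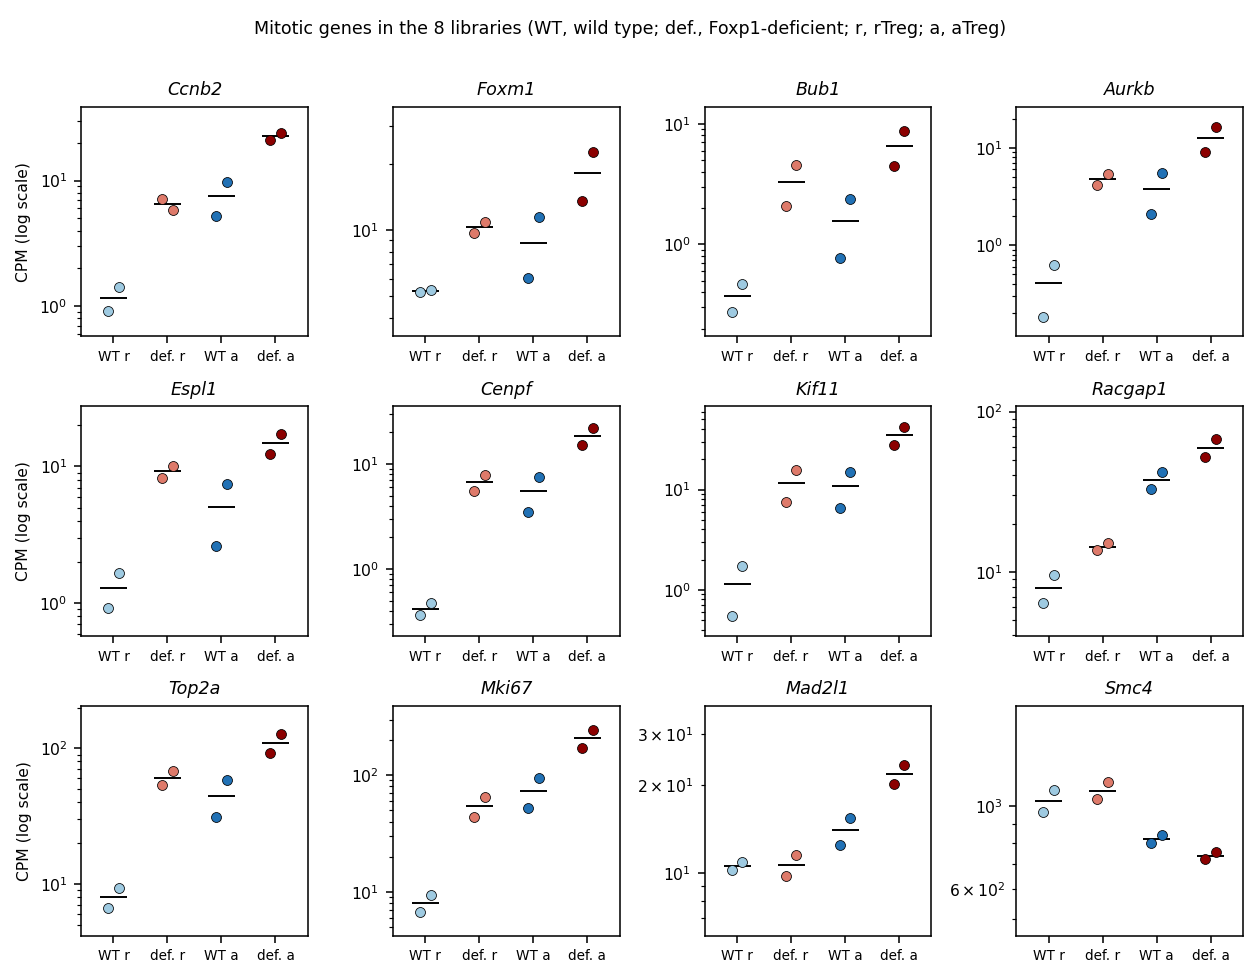
Each panel shows 1 mitotic gene, with its CPM on a log axis in the 2 libraries of each of the 4 groups and a bar at the group mean. For Ccnb2, Aurkb, Cenpf, Kif11, Top2a and Mki67 the WT rTreg libraries lie lowest and the Foxp1-deficient aTreg libraries highest, while Mad2l1 is flat across rTreg cells and Smc4 is lower in aTreg cells.

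In WT cells, 35 of 55 mitotic genes were called higher in aTreg than in rTreg cells and 0 lower (Smc4 alone at an unadjusted p under 0.05 in edgeR, and 0 by DESeq2 and by limma-voom), at an adjusted p under 0.05 and a fold of at least 2, against 9.5% of all genes called higher and 2.83% called lower. Their median log2 fold change was 1.83, against -0.0046 for all genes tested. In Foxp1-deficient cells 31 of 55 were called higher in aTreg cells and 0 lower (again Smc4 alone at an unadjusted p under 0.05, and 0 by both other tools), against 11.3% and 4.39%, with a median of 1.05. The largest WT differences belonged to Kif4 (a ratio of 17.7 (95% exact interval 6.61 to 66.5) against 1 and 3 counts), Ccnb1 (log2 3.81), Cenpf (log2 3.68), Kif11 (log2 3.22) and Aurkb (log2 3.17). In Foxp1-deficient cells Ccnb1 (log2 2.26), Racgap1 (log2 2.06), Mki67 (log2 1.95) and Ube2c (log2 1.91) led. A set of 25 genes was called higher in both of these and in both genotype comparisons, among them Cdk1, Ccna2, Ccnb1, Ccnb2, Aurkb, Birc5, Bub1b, Cenpe, Cenpf, Kif11, Tpx2, Ube2c and Mki67, against 74 of all 14540 genes (0.509%), and these comparisons share their libraries. Calls in WT cells fell to 22 without WT rTreg replicate 2, and those in Foxp1-deficient cells to 20 without Foxp1-deficient rTreg replicate 2 and to 19 without the replicate term.

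Foxp1-deficient rTreg cells were sorted as resting and WT aTreg cells as activated, and a direct comparison asks how far apart their mitotic RNA stood. Of the 55 genes 1 was called higher in WT aTreg cells (1.82%) and 1 lower (1.82%), against 10.6% and 3.51% of all genes tested. The median log2 difference, WT aTreg minus Foxp1-deficient rTreg cells, was -0.17, against -0.022 for all genes. Racgap1 was the gene called higher, by a log2 difference of 1.40 ± 0.11 (SE), adjusted p = 7.9e-05. Bub1 was the gene called lower, by a log2 difference of -1.06 ± 0.29 (SE), adjusted p = 0.022, and it lost the call with DESeq2, without the replicate term, in the fit of these 4 libraries alone, and without any one of these 4 libraries. Without WT aTreg replicate 2, Espl1 and Tpx2 were called lower in its place, while Racgap1 was called in every alternative.

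A further 5 genes had an adjusted p under 0.05 and a difference under 2-fold. Mki67 (log2 0.42) and Mad2l1 (log2 0.39) were higher in WT aTreg cells, and Top2a (log2 -0.46), Espl1 (log2 -0.86) and Smc4 (log2 -0.43) were lower. For the other 48 genes the test did not separate these groups, which does not show that their levels were equal. The 95% interval of the log2 difference ran from -0.59 to 0.65 for Ccna2, -0.57 to 0.34 for Kif11, -0.82 to 0.19 for Cdk1 and -0.77 to 0.18 for Cenpf.

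**Figure D4:**
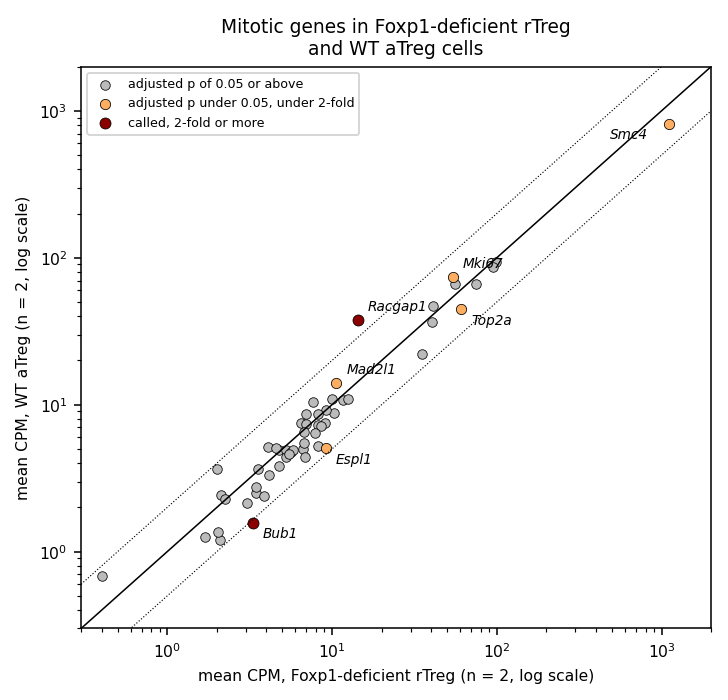
Each point is 1 mitotic gene, with its mean CPM in Foxp1-deficient rTreg cells on the horizontal axis and in WT aTreg cells on the vertical axis, both on log scales. The solid line marks equal levels and the dotted lines a 2-fold difference. Most points lie between the dotted lines, Racgap1 lies above them and Bub1 lies at the lower line.

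The genotype difference was tested between subsets with an interaction term, the log2 fold change in aTreg minus that in rTreg cells. Of the 55 genes 2 passed an adjusted p of 0.05, both with a smaller fold in aTreg cells, against 0.33% of all genes in either direction and 0.144% in that direction. Top2a differed on the log2 scale by -1.61 ± 0.18 (SE), adjusted p = 0.027, and Mki67 by -1.22 ± 0.15 (SE), adjusted p = 0.027. At an unadjusted p under 0.05 there were 16 of 55 genes (29.1%), against 12.8% of all genes, and the fold change was the more positive in rTreg cells for 43 of 55, against 7514 of all 14540 genes. Without the replicate term 0 of 55 passed, limma-voom called Top2a alone, DESeq2 called Cenpf as well, and the fit without a low-count filter called 8. Leaving out any one of 6 of the 8 libraries left 0, the exceptions being the WT aTreg libraries, with 4 without replicate 1 and 2 without replicate 2. In the WT rTreg libraries Top2a and Mki67 held 72 to 120 counts.

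Other genes of the same processes were listed by hand, 108 in 6 classes. In rTreg cells 31 of them were called higher in Foxp1-deficient cells and 0 lower, and in aTreg cells 25 and 0, with 9 and 2 lower by edgeR at an unadjusted p under 0.05 and 0 called lower by DESeq2 or limma-voom. Of 25 other spindle, motor and cytokinesis genes 17 were called higher in rTreg cells and 13 in aTreg cells, with median log2 fold changes of 1.81 and 1.21. They were led by Kif18b, a kinesin of the spindle microtubules, with 0 and 3 counts in the WT rTreg libraries and a ratio of Foxp1-deficient to WT rTreg cells of 34.8 (95% exact interval 11.5 to 172). Fam64a followed with 1 and 0 counts there and a ratio of 30.5 (95% exact interval 5.01 to 1250.0), and Shcbp1, a midbody protein, with 2 counts in each and a ratio of 16.1 (95% exact interval 5.95 to 61.2). In aTreg cells the log2 fold changes of these genes were 2.01, 2.01 (adjusted p = 0.066, not called) and 1.51.

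Of 33 other kinetochore and checkpoint genes 7 were called in rTreg cells and 6 in aTreg cells, led by Kntc1, a subunit of the RZZ complex (log2 3.08 and 1.14), Ska1 (a ratio of 7.82 (95% exact interval 2.32 to 41.1) in rTreg cells, against 1 and 2 counts) and Ska3 (log2 1.94 and 1.13). Of 16 other regulators of mitotic entry and exit 5 and 4 were called, among them the kinases Nek2 (log2 2.77 and 2.00) and Pbk (a ratio of 10.6 (95% exact interval 3.78 to 40.8) in rTreg cells and a log2 fold change of 1.55 in aTreg cells) and the CDK subunit Cks1b (log2 1.20 and 1.02). Of 4 others, 3 condensin II subunits and the meiotic cohesin gene Smc1b, Ncapg2 was called in both subsets (log2 1.65 and 0.95).

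Of the 16 anaphase-promoting complex genes 0 were called in either subset by edgeR, DESeq2 or limma-voom. At an unadjusted p under 0.05 edgeR put 2 higher and 3 lower in rTreg cells and 0 higher and 1 lower in aTreg cells, and the medians were -0.0071 and -0.017. Its most abundant gene by CPM, Anapc5, differed on the log2 scale by -0.08 (adjusted p = 0.50) and -0.10 (adjusted p = 0.44). Of 14 cohesin genes and regulators 1 was called in each subset, Esco2, the acetyltransferase of S phase cohesion (log2 3.38 in rTreg cells, adjusted p = 0.0068, and 1.63 in aTreg cells, adjusted p = 0.026), and the median of the class was -0.043 and 0.081.

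Of 42 DNA replication genes 11 were called higher in rTreg cells and 7 in aTreg cells, with 0 lower in either, and the medians were 0.45 and 0.38, against 1.79 and 1.20 for the 55 mitotic genes. The largest were Mcm10 (log2 2.75 in rTreg cells, adjusted p = 0.018), Rrm2, the inducible subunit of ribonucleotide reductase (log2 1.80 and 1.32), and Cdc6, the loader of the replicative helicase (log2 1.78 and 1.10). Between WT aTreg and Foxp1-deficient rTreg cells 0 of the 42 replication genes were called by edgeR at the 2-fold threshold, against 10.6% of all genes called higher and 3.51% called lower. At an unadjusted p under 0.05 edgeR put 7 of them higher and 9 lower, and DESeq2 and limma-voom called 0.

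**Figure D5:**
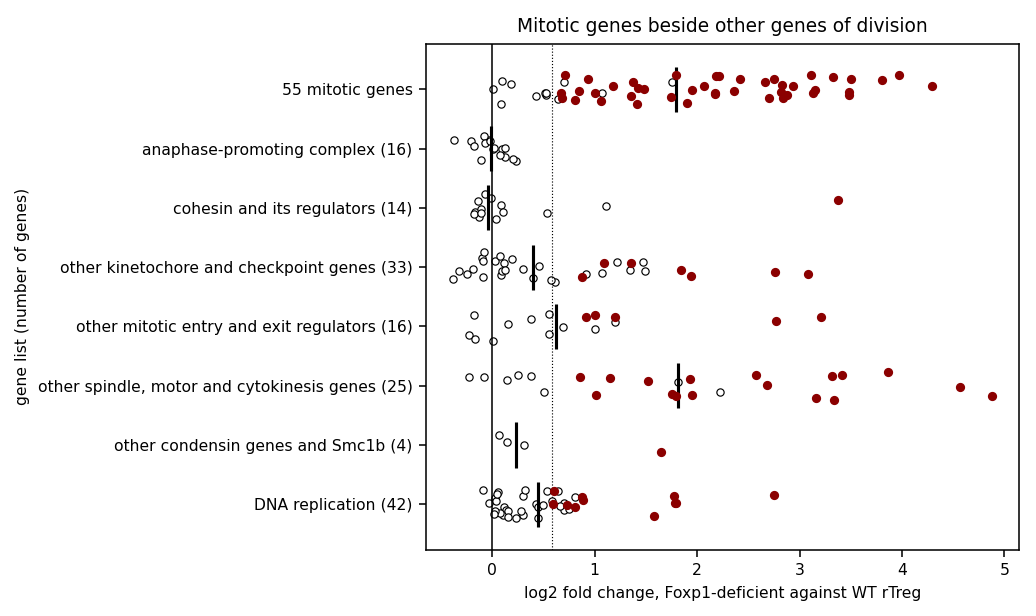
Each point is 1 gene and gives its log2 fold change between Foxp1-deficient and WT rTreg cells, for the 55 mitotic genes, for 6 classes of other genes of the same processes and for DNA replication genes. Red points were called, open points were not, bars mark the median, and the dotted line marks a fold of 1.5. The 55 mitotic genes and the other spindle, motor and cytokinesis genes reach furthest to the right, and the anaphase-promoting complex stays near 0.

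Markers of other cells were read beside these values. Cd3e, Cd4, Foxp3, Il2ra, Ctla4 and Ikzf2 summed to 2788 to 4317 CPM in every library, so the sorted cells carried the markers of Treg cells. Single genes of this sum moved with genotype. In Foxp1-deficient rTreg cells Ctla4 was called lower (log2 -0.885, adjusted p = 0.00089). Ikzf2 (log2 -0.47, adjusted p = 0.011) and Foxp3 (log2 -0.32, adjusted p = 0.04965) were lower by less than 1.5-fold. Cd4 (log2 0.54, adjusted p = 0.0012) and Cd3e (log2 0.29, adjusted p = 0.039) were higher by less than 1.5-fold. In aTreg cells Ctla4 (log2 -0.51, adjusted p = 0.010) and Il2ra (log2 -0.27, adjusted p = 0.043) were lower and not called. CD8 T cell markers (12.5 to 16.7 CPM in WT rTreg, 13.2 to 14.3 in Foxp1-deficient rTreg, 8.08 to 9.98 in WT aTreg and 6.11 to 8.13 in Foxp1-deficient aTreg cells) overlapped between genotypes in both subsets. So did NK cell, erythroid and thymocyte markers (at most 4.87, 4.46 and 2.03 CPM in any library). Myeloid markers (8.11 to 8.17, 8.38 to 10.5, 6.86 to 7.35 and 5.10 to 10.5 CPM in the same order) did not overlap in rTreg cells and overlapped in aTreg cells. Of the 3 tested, 0 were called in either subset. In rTreg cells Lyz2 (log2 1.94, adjusted p = 0.14) and Itgam (log2 1.74, adjusted p = 0.13) were above 0 and Cd68 (log2 -0.34, adjusted p = 0.47) was below it. The part of myeloid cells in the mitotic RNA was not tested.

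The 7 B cell markers summed to 8.29 to 9.27 CPM in WT rTreg, 9.89 to 11.0 in Foxp1-deficient rTreg, 33.6 to 39.1 in WT aTreg and 34.3 to 36.6 in Foxp1-deficient aTreg cells, so that the genotypes did not overlap in rTreg cells and overlapped in aTreg cells. Of the 4 that passed the filter on low counts, Cd22 was called higher in Foxp1-deficient rTreg cells (log2 1.65, adjusted p = 0.049), on 4 and 3 counts in WT against 9 and 9 in Foxp1-deficient libraries, and none was called in aTreg cells. The 5 germinal center and plasma cell markers in the table summed higher in Foxp1-deficient cells of both subsets without overlap, at 12.9 to 13.2, 15.8 in both libraries, 27.0 to 33.2 and 40.7 to 42.0 CPM in the same order of groups. S1pr2, the most abundant of them in WT rTreg cells, was at 10.8 and 12.4 CPM in WT and 7.01 and 10.2 CPM in Foxp1-deficient rTreg cells (log2 -0.42, adjusted p = 0.090). Jchain, the joining chain of secreted antibodies, was called higher in Foxp1-deficient rTreg cells, at 1.84 and 0.314 CPM in WT and 7.33 and 4.77 CPM in Foxp1-deficient libraries (log2 2.64, adjusted p = 0.022), and none of the 5 was called in aTreg cells, where Jchain had a log2 difference of 1.36 (adjusted p = 0.13). The part of B cells, germinal center cells and plasma cells in the mitotic RNA was not tested.

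Granulocyte precursors also divide, and some of their 7 listed markers moved with genotype. All 7 together summed to 0.157 to 1.20 CPM in WT rTreg, 7.22 to 18.2 in Foxp1-deficient rTreg, 2.85 to 3.65 in WT aTreg and 3.88 to 31.8 in Foxp1-deficient aTreg cells, with Mpo, Elane and Prtn3 at 0 in both WT rTreg libraries. The 2 Foxp1-deficient aTreg libraries thus lay far apart, and the lower one was close to the WT aTreg sums. Of the 6 that could be tested, 4 were called higher in Foxp1-deficient rTreg cells (Mpo, Prtn3, S100a8 and S100a9) and 2 in Foxp1-deficient aTreg cells (Mpo and Prtn3). Elane and Ngp were called in neither subset, and Camp did not pass the filter on low counts. The part of granulocyte precursors in the mitotic RNA was not tested.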

How the data were processed

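Messenger RNA was sequenced in 8 libraries, 2 for each of 4 groups, from total RNA made with Trizol and a kit that does not mark strand, so genes that overlap on opposite strands could not be separated. The authors trimmed the reads, removed duplicate reads and counted the rest per Ensembl gene; the deposited values are these counts, of 6373170 to 15268623 per library, and FPKM that the authors derived from them. Removal of duplicates can compress high levels. The submitters' processing notes name HISAT2 2.0.5, HTSeq and mm10.

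Counts of 14540 genes that passed edgeR's filterByExpr (minimum count 10) were scaled by TMM and fitted with edgeR 4.0.16 in R 4.3.3, with the 4 groups and the replicate number as terms over all 8 libraries, after the paired design of the study's methods. All p-values are those of the quasi-likelihood test in edgeR, adjusted by the Benjamini-Hochberg method over all genes tested, unless limma-voom (limma 3.58.1) or DESeq2 1.42.0 is named. A call needed an adjusted p under 0.05 and a fold of at least 1.5 between genotypes or 2 between subsets. Deviations from the group means of same-numbered libraries correlated at 0.35 to 0.60 in all 6 pairs of groups across genes, which took the numbers, given by the labels, as pairs. Replicate 2 held more counts than replicate 1 in every group, and whether depth or a shared batch gave these correlations was not tested. Intervals on ratios of low counts are exact binomial intervals at 95% (SciPy 1.17.1) and, like the floor of 3 counts, cover counting error only.

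The genes, their classes and the other lists were chosen with earlier results of these data known. Values in every library are given for the most abundant gene of each class by mean CPM, for Mki67, for up to 3 called genes per class with the largest fold in each genotype comparison, and for genes past the interaction test; of the other lists at most 3 genes per class are named. The alternatives were no replicate term, limma-voom, DESeq2, median-of-ratios scaling, no low-count filter, the libraries of a comparison alone, and each library left out. Values of some marker genes of other cells and of the sort are not reported here.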

Additional observations from a re-analysis of the deposited data

Results flagged for a closer look

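The genotype difference of 2 mitotic genes differed between aTreg and rTreg cells by a test of the interaction, taken as the log2 fold change in aTreg minus that in rTreg cells. The interaction of Top2a was -1.61 (edgeR, adjusted p = 0.027), with log2 fold changes of 2.93 in rTreg and 1.32 in aTreg cells. That of Mki67 was -1.22 (edgeR, adjusted p = 0.027), with 2.75 in rTreg and 1.53 in aTreg cells. Both genes were higher in Foxp1-deficient cells in both subsets and in both replicate pairs. Neither interaction was called without the replicate term or without any one of 6 of the 8 libraries, and both were called without WT aTreg replicate 1 or replicate 2.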

How the results depend on the processing

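With the replicate number left out as a block, 16 mitotic genes were called higher with Foxp1 deficiency in rTreg cells, 2 in aTreg cells, 19 between the Foxp1-deficient subsets, 0 lower between WT aTreg and Foxp1-deficient rTreg cells and 0 in the interaction, and the medians kept their direction. DESeq2 and a fit restricted to the 4 libraries compared called 0 lower between WT aTreg and Foxp1-deficient rTreg cells. In the interaction limma-voom called 1 and the fit without a low-count filter 8. Leaving out a library gave 13 to 44 calls in rTreg cells, 10 to 41 in aTreg cells, 22 to 37 between the WT subsets, 20 to 33 between the Foxp1-deficient subsets, 1 to 1 higher and 0 to 2 lower between WT aTreg and Foxp1-deficient rTreg cells, and 0 to 4 in the interaction. In the 4 comparisons with 0 mitotic genes lower, every alternative gave 0 lower. The 2 libraries of Foxp1-deficient cells that decided most were replicate 2 of rTreg cells (13 calls without it) and replicate 2 of aTreg cells (10 calls without it). Among the named genes Mad2l1 turned to -0.01 in rTreg cells with DESeq2 (-0.0056), median-of-ratios scaling (-0.0046) and no filter (-0.0085), and ran from -0.086 (without WT rTreg replicate 2) to 0.072 when a library was left out, below 0 also without Foxp1-deficient rTreg replicate 2. Bub3 in aTreg cells ran from -0.028 (without Foxp1-deficient replicate 1) to 0.13. Of 720 values of named genes 535 kept direction and side of the threshold, 171 lost the call, 8 gained it and 6 changed sign. The causes were not tested. Depth limits the genes with under 10 counts in WT rTreg libraries, whose fold rests on few reads.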
